A study of Homo sapiens with 8 samples.

Results

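The transcript response to a low dose of doxorubicin given alone was measured in SupB15 cells. Doxorubicin, an anthracycline, poisons topoisomerase II so that breaks are left in both DNA strands. SupB15 is an established human cell line from a Philadelphia chromosome-positive leukemia of pre-B lymphoblasts. The members are 4 of the 8 libraries of the study, chosen by their sample labels: 2 libraries of cells given doxorubicin at 0.1 µM for 10 h and 2 libraries of cells given the solvent DMSO for 46 h. In the other 4 libraries, which give a second setting of the same dose and enter the fits over all 8 libraries, cells received the histone deacetylase inhibitor 1035 at 2 µM for 46 h, or 1035 at 2 µM for 36 h and then doxorubicin at 0.1 µM for 10 h. All groups were the same cell line grown in medium with serum, and every sample is thus a culture of 1 leukemia line. DMSO treatment lasted 46 h and doxorubicin treatment 10 h, so the drug and the length of treatment cannot be told apart.

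As background, the kinases ATM and ATR signal broken DNA to p53, a transcription factor that MDM2 keeps scarce in unstressed cells. Stabilised p53 raises genes that stop the cell cycle, that start apoptosis, that repair DNA and that return p53 to its low level, MDM2 among them. ATM also activates NF-kB after DNA breaks, and a slowed S phase is known to lower the transcripts of replication-dependent histones, which are made only while DNA is copied. In bulk RNA of a culture, fewer cells in a state and less RNA per cell cannot be told apart.

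The libraries held 16219157 and 15571917 counted reads for DMSO and 18147011 and 12399536 for doxorubicin. Of 16773 genes in the table, 15799 were tested. The replicates of doxorubicin differed more than those of DMSO: their spread against sampling noise, as chi-square per degree of freedom, was 4.57 for doxorubicin and 1.77 for DMSO. Doxorubicin library 2 stood apart by its mitochondrially encoded reads, 0.258% of the library against 0.145% to 0.163% in the other 3. Of 14 tested B-lineage markers fixed for the label check, none was called, and the transcripts of IGLL1 (a surrogate light chain of precursor B cells, 845 and 816 CPM in DMSO and 749.8 and 823 CPM after doxorubicin) and DNTT (the terminal transferase of early lymphocytes, 953 and 849 CPM in DMSO and 861 and 957 CPM after doxorubicin) were present in every library. Levels here and below are TMM-normalised CPM, that is, counts scaled to a common library size, given for library 1 and then library 2 of each group. Of the markers of other cell types, 5 of 10 myeloid, 4 of 10 T and NK cell, 2 of 8 erythroid and 3 of 9 stromal markers had enough counts to be tested, and none was called.

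At 10 h the response was small in number and in size. In edgeR's quasi-likelihood test with Benjamini-Hochberg adjustment at a false discovery rate (FDR) of 5%, 74 of 15799 genes rose (0.468% of those tested) and 56 fell (0.354%), 130 or 0.823% in all. Of the rises, 23 were at least 1.5-fold and 8 at least 2-fold, with a median log2 fold change of 0.45. None of the falls reached 1.5-fold. Their median was -0.30 and the lowest was -0.48. Over all genes tested the median log2 fold change was 0.00, with 8007 genes above 0 and 7792 below. Both doxorubicin libraries lay outside the range of the DMSO libraries on the same side for all 130 called genes. Over all genes tested this held for 22.5% on the higher side and 22.3% on the lower side. The calls were made on the same values, so this separation, here and for single called genes below, is no added support for them. Genes of p53 target lists made up 26 of the 74 rises, and replication-dependent histone genes 36 of the 56 falls. The number of calls depended on single libraries. Without DMSO library 1, 31 genes rose (0.189%) and 4 fell (0.0244%), and without DMSO library 2, 49 rose (0.299%) and 19 fell (0.116%). Without doxorubicin library 1, 1066 rose (6.53%) and 1025 fell (6.28%), and without doxorubicin library 2, 151 rose (0.929%) and 166 fell (1.02%). Of the calls, 25 rises and 2 falls were kept in all 4 of these fits. In a fit over all 8 libraries 127 rose (0.800%) and 89 fell (0.560%).

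**Figure D1:**
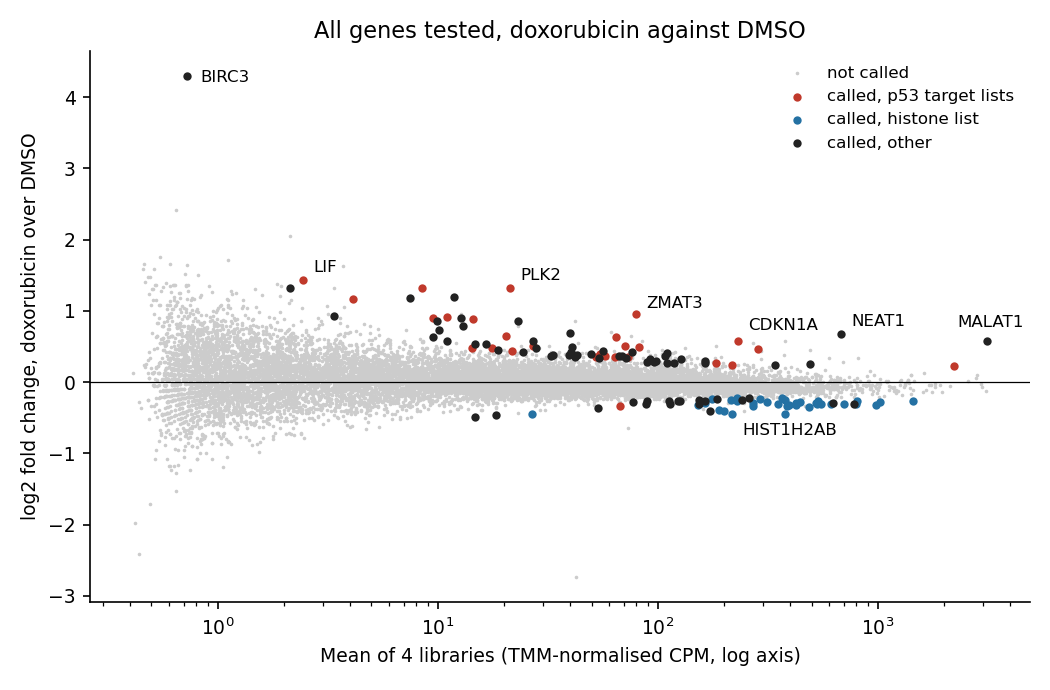
Each point is 1 of the genes tested, by its mean level over the 4 libraries (TMM-normalised CPM, log axis) and its log2 fold change of doxorubicin over DMSO. The highest called value is that of BIRC3, followed by that of LIF, while the called histone genes form a tight group between -0.45 and -0.22.

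**Figure D2:**
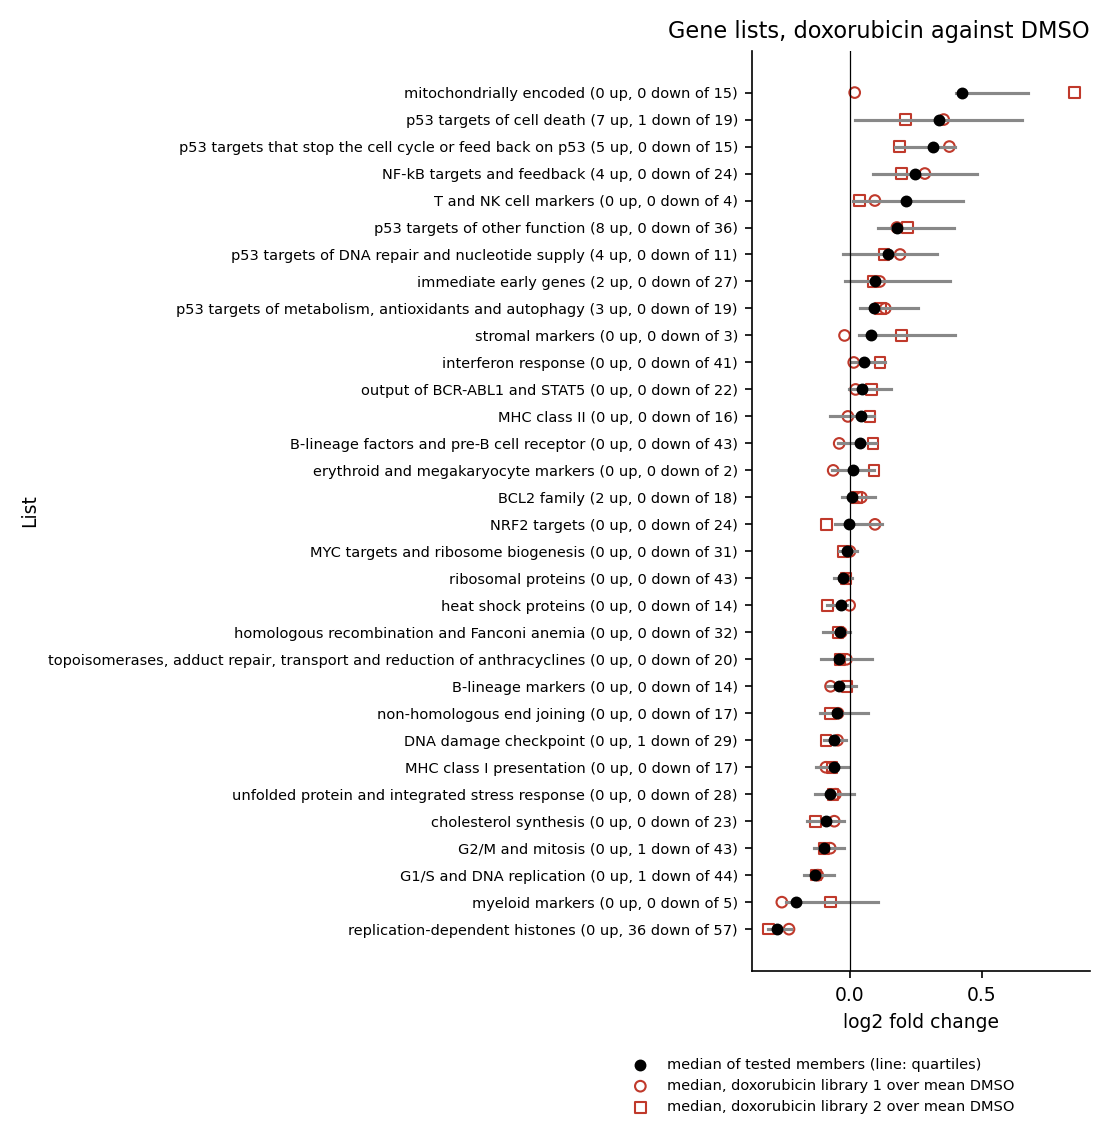
Each row is 1 gene list, with the median log2 fold change of its tested members (black point), their quartiles (line) and the same median in each doxorubicin library against the mean of DMSO (open red symbols). The 5 p53 lists lie above 0 and the histone list at -0.28, and the mitochondrially encoded list shows its 2 doxorubicin libraries far apart.

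Targets of p53 rose in each of the roles listed. Of 99 tested targets, 26 rose and 1 fell, while over all genes tested 0.468% rose and 0.354% fell. The median log2 fold change over the 99 was 0.18, and 84 were above 0. The lists were written with earlier results of these data known, so their direction is not independent evidence. With 1 library left out, 36 targets rose without doxorubicin library 1, 37 without doxorubicin library 2, 12 without DMSO library 1 and 14 without DMSO library 2. The 12 that kept their call in all 4 of these fits were CDKN1A, PLK2, BBC3, TNFRSF10B, FAS, PHLDA3, DDB2, SESN1, FDXR, ZMAT3, TRIM22 and VWCE, and the others lost it without DMSO library 1. Among 15 targets that stop the cell cycle or feed back on p53, 5 rose and none fell, and the median of the 15 was 0.32.

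PLK2, a polo-like kinase induced by stress, was at 11.5 and 12.99 CPM in the DMSO libraries and at 33.3 and 27.3 CPM in the doxorubicin libraries (log2 fold change 1.32 ± 0.11, adjusted p = 1.28e-06, with ± for the standard error here and below and adjusted p-values from edgeR). CDKN1A, the p21 inhibitor of cyclin-dependent kinases, was at 188 and 182 CPM in the DMSO libraries and at 283 and 271 CPM in the doxorubicin libraries (log2 fold change 0.58 ± 0.06, adjusted p = 3.29e-06). MDM2, the ubiquitin ligase that degrades p53, measured 2029 and 2036 CPM in DMSO and 2461 and 2316 CPM after doxorubicin (log2 fold change 0.23 ± 0.05, adjusted p = 0.0297). In these 3 genes both doxorubicin libraries lay above both DMSO libraries. The antiproliferative genes BTG2 and TOB1, which belong to the same family, rose as well. BTG2 measured 51.3 and 49.04 CPM without the drug and 65.2 and 64.5 CPM with it (log2 fold change 0.37 ± 0.07, adjusted p = 0.00894). TOB1 measured 22.6 and 22.6 CPM without the drug and 32.9 and 30.8 CPM with it (log2 fold change 0.50 ± 0.09, adjusted p = 0.00614). Doxorubicin library 1 was the higher of the doxorubicin libraries for all 5 of these genes. GADD45A, PLK3, IER5 and PPM1D, which are further targets that act in arrest or feedback, had log2 fold changes of 0.41 ± 0.10, 0.32 ± 0.09, 0.39 ± 0.12 and 0.23 ± 0.08 and did not pass the test.

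Among 19 targets of cell death, 7 rose and 1 fell, with a median of 0.34. The death receptor gene FAS was at 2.67 and 2.46 CPM in the DMSO libraries and at 6.63 and 4.72 CPM in the doxorubicin libraries (log2 fold change 1.17 ± 0.22, adjusted p = 0.00724). TNFRSF10B, the TRAIL receptor DR5, was at 6.90 and 6.33 CPM in the DMSO libraries and at 11.9 and 12.9 CPM in the doxorubicin libraries (log2 fold change 0.90 ± 0.14, adjusted p = 0.00117). Both had few reads in DMSO, and neither gene's groups overlapped. With DESeq2 FAS did not pass (adjusted p = 0.0963). BBC3 encodes PUMA, a BH3-only protein that unleashes BAX, and measured 10.3 and 10.1 CPM in DMSO and 20.2 and 17.5 CPM after doxorubicin (log2 fold change 0.89 ± 0.12, adjusted p = 0.000229). BAX, which permeabilises the outer mitochondrial membrane, measured 65.3 and 63.3 CPM in DMSO and 86.9 and 76.7 CPM after doxorubicin (log2 fold change 0.35 ± 0.07, adjusted p = 0.0127), and it did not pass with DESeq2 (adjusted p = 0.0749). These were the 2 called of 18 tested members of the BCL2 family, whose median was 0.01. PMAIP1, which encodes the BH3-only protein NOXA and is also a p53 target, measured 106 and 116 CPM in DMSO and 118 and 105 CPM after doxorubicin, with overlapping groups (log2 fold change 0.01 ± 0.07, adjusted p = 0.97). BCL2 and MCL1, which encode antiapoptotic proteins, had log2 fold changes of -0.02 ± 0.06 and -0.02 ± 0.05 and did not pass.

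PHLDA3, an inhibitor of the survival kinase AKT, was among the 12 largest rises, with 4.48 and 5.30 CPM in DMSO and 12.5 and 11.8 CPM after doxorubicin (log2 fold change 1.32 ± 0.15, adjusted p = 3.28e-05). AEN, a nuclease that takes part in apoptosis, measured 47.6 and 44.4 CPM without the drug and 58.9 and 58.4 CPM with it (log2 fold change 0.35 ± 0.07, adjusted p = 0.02). TP53INP1, a stress-induced cofactor of p53, measured 197 and 202 CPM without the drug and 233 and 237 CPM with it (log2 fold change 0.24 ± 0.05, adjusted p = 0.0399). The groups did not overlap for any of these. SIVA1, which encodes a proapoptotic partner of the receptor CD27, went the other way at 76.2 and 74.4 CPM in DMSO and 58.4 and 61.5 CPM after doxorubicin (log2 fold change -0.33 ± 0.07, adjusted p = 0.013). Both doxorubicin libraries were below both DMSO libraries for SIVA1.

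Of 11 targets in DNA repair and nucleotide supply, 4 rose and none fell, with a median of 0.14. DDB2 and XPC encode proteins that recognise damage in nucleotide excision repair. DDB2 measured 58.6 and 59.2 CPM without the drug and 87.4 and 80.2 CPM with it (log2 fold change 0.51 ± 0.07, adjusted p = 0.000229). XPC measured 48.3 and 45.9 CPM without the drug and 62.3 and 61.2 CPM with it (log2 fold change 0.39 ± 0.07, adjusted p = 0.00683). RPS27L, a ribosomal protein paralog, was at 62.9 and 73.6 CPM in the DMSO libraries and at 103 and 88.8 CPM in the doxorubicin libraries (log2 fold change 0.50 ± 0.08, adjusted p = 0.0115). The catalytic subunit of the translesion polymerase zeta, REV3L, was at 159 and 173 CPM in the DMSO libraries and at 189.5 and 212 CPM in the doxorubicin libraries (log2 fold change 0.27 ± 0.06, adjusted p = 0.0483). All 4 genes had their groups apart. RRM2B, the p53-inducible subunit of ribonucleotide reductase, measured 91.4 and 94.7 CPM in DMSO and 107 and 94.5 CPM after doxorubicin, so that doxorubicin library 2 lay within the range of DMSO, and it did not pass (log2 fold change 0.12 ± 0.07, adjusted p = 0.464).

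In metabolism, antioxidant defence and autophagy 3 of 19 targets rose and none fell, with a median of 0.09. SESN1, a sestrin that restrains mTORC1, measured 48.4 and 53.4 CPM without the drug and 84.9 and 72.2 CPM with it (log2 fold change 0.63 ± 0.08, adjusted p = 0.000229). FDXR, the mitochondrial ferredoxin reductase, measured 15.5 and 16.3 CPM without the drug and 26.3 and 23.4 CPM with it (log2 fold change 0.65 ± 0.10, adjusted p = 0.0015). DRAM1, a lysosomal regulator of autophagy, measured 11.6 and 12.4 CPM without the drug and 16.4 and 16.9 CPM with it (log2 fold change 0.47 ± 0.11, adjusted p = 0.048). The 2 libraries of each group were on their own side in all 3 genes. Among 36 targets of other function 8 rose, XPC among them because it stands in both lists. ZMAT3, an RNA-binding zinc finger protein, had the smallest adjusted p of all genes tested and was at 51.5 and 56.5 CPM in the DMSO libraries and at 103 and 107 CPM in the doxorubicin libraries (log2 fold change 0.96 ± 0.07, adjusted p = 3.52e-08). TRIM22, a tripartite motif protein of antiviral defence, was at 239 and 240.3 CPM in the DMSO libraries and at 343 and 317 CPM in the doxorubicin libraries (log2 fold change 0.46 ± 0.06, adjusted p = 9.13e-05). LIF, a cytokine of the interleukin-6 family, and VWCE, which has von Willebrand factor domains, had few reads in DMSO. LIF measured 1.24 and 1.42 CPM without the drug and 4.11 and 2.96 CPM with it (log2 fold change 1.43 ± 0.28, adjusted p = 0.0115). VWCE measured 6.90 and 8.46 CPM without the drug and 14.6 and 14.3 CPM with it (log2 fold change 0.91 ± 0.13, adjusted p = 0.000667). The other 3 were the ubiquitin ligase RNF19B (0.43 ± 0.10), the zinc finger gene ZNF79 (0.47 ± 0.10) and the guanine nucleotide exchange factor gene ARHGEF3 (0.35 ± 0.07), all with groups apart.

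**Figure D3:**
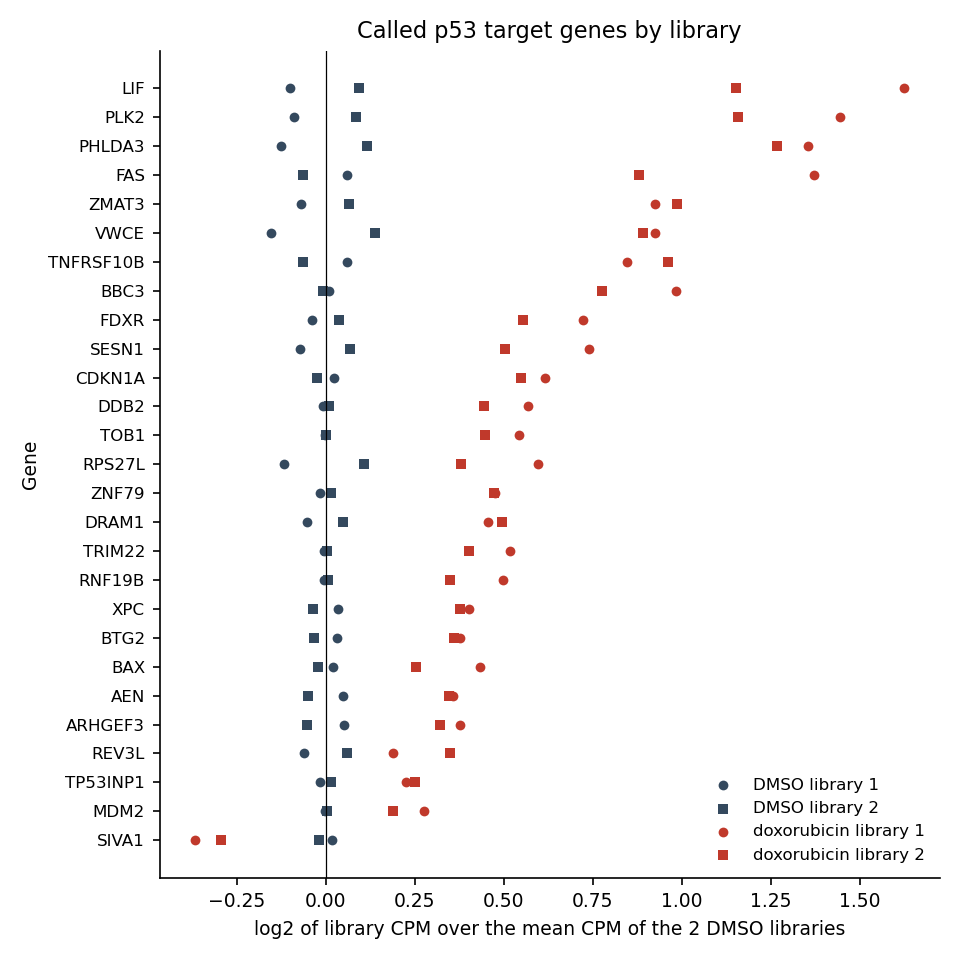
Rows are the 27 called genes of the p53 lists, and the axis is the log2 ratio of each library's CPM to the mean CPM of the 2 DMSO libraries. The doxorubicin libraries (red) lie right of the DMSO libraries (dark) in 26 rows and left of them for SIVA1, and library 1 (circle) lies right of library 2 (square) in 21 of the 26 rises.

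Promoters of the genes that rose were searched for the p53 response element because these genes moved together. The search took 2 p53 half-sites in a row, with a spacer of 0 or 1 base, the C and G of each core intact and at most 3 mismatches in 20 bases, on both strands, in 250 bases before to 50 after the start (RefSeq, GRCh38.p14). A promoter was matched for 54 of the 74 rises, and 4 of the 54 held such an element (7.41%, Wilson 95% interval 2.92% to 17.6%, counting error only). Over all p53 lists 9 of 85 matched promoters held one (10.6%), 3 of them among the 20 of listed targets that rose. Among rises in no p53 list it was 1 of 34 (2.94%), the promoter of LINC01021. None of 30 matched promoters of genes that fell held one, against 229 of 10274 promoters of all genes tested (2.23%) and 2.38% of the 27305 promoters in the table. With at most 2 mismatches the shares were 3.70% of the rises and 0.350% of all genes tested. The 4 elements are shown, in capitals, with up to 15 bases on each side and none past the start, since they belong to genes whose rise is given here. The windows are at chr5:27472150-27472199 on the plus strand for LINC01021, chr15:88621291-88621339 on the plus strand for AEN, chr17:74872995-74873030 on the minus strand for FDXR and chr15:63157512-63157561 on the minus strand for RPS27L.
LINC01021: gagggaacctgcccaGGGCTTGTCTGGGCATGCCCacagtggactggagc
AEN: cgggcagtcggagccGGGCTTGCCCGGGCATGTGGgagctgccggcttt
FDXR: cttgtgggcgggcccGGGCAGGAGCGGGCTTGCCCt
RPS27L: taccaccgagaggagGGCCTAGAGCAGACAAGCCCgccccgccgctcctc
The element of LINC01021, which RefSeq lists as PURPL, had 0 mismatches and lay 127 to 108 bases before the start. The elements of AEN, FDXR and RPS27L had 2, 3 and 3 mismatches. A match describes letters and not binding, and the other rises may hold elements outside this window.

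Of 530 long intergenic RNAs tested 4 rose (0.755%), of 644 antisense RNAs 1 rose (0.155%) and of 188 processed transcripts none did. Over all genes 0.468% rose, so these shares are no result about the classes, and the 5 RNAs are described singly. LINC01021 was at 7.59 and 6.85 CPM in the DMSO libraries and at 17.04 and 16.1 CPM in the doxorubicin libraries (log2 fold change 1.20 ± 0.12, adjusted p = 1.35e-05). NEAT1, the scaffold of nuclear paraspeckles, was at 485 and 567 CPM in the DMSO libraries and at 858 and 815 CPM in the doxorubicin libraries (log2 fold change 0.67 ± 0.06, adjusted p = 3.28e-05). PVT1, the host of several microRNAs, measured 29.8 and 31.7 CPM in DMSO and 47.2 and 51.8 CPM after doxorubicin (log2 fold change 0.68 ± 0.08, adjusted p = 9.77e-05). The groups were apart in all 3. MALAT1, a nuclear RNA of splicing speckles, and KCNQ1OT1, an imprinted antisense RNA, were chosen after their values were seen. MALAT1 measured 2511 and 2518 CPM without the drug and 3389 and 4109 CPM with it (log2 fold change 0.58 ± 0.08, adjusted p = 0.00582). KCNQ1OT1 measured 107 and 121 CPM without the drug and 136 and 148 CPM with it (log2 fold change 0.32 ± 0.07, adjusted p = 0.0231). Doxorubicin library 2 was the higher of the doxorubicin libraries for both, and it was also the library with more mitochondrially encoded reads, whose part in these rises was not tested. NEAT1, MALAT1 and KCNQ1OT1 were not called in the fit over all 8 libraries, in which the log2 fold change of NEAT1 was 0.66 (adjusted p = 0.269, edgeR). Among the transcripts with few reads and the largest changes, RP11-1099M24.7 was at 1.49 and 0.905 CPM in the DMSO libraries and at 2.63 and 3.52 CPM in the doxorubicin libraries (log2 fold change 1.32 ± 0.30, adjusted p = 0.0426). RP11-309G3.3, another of them, was at 2.24 and 2.46 CPM in the DMSO libraries and at 4.55 and 4.32 CPM in the doxorubicin libraries (log2 fold change 0.92 ± 0.22, adjusted p = 0.0483). The groups were apart for both, although each lost its call in 2 of the 4 fits with 1 library left out.

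Targets and feedback genes of NF-kB rose in part. Of 24 tested, 4 rose and none fell, while over all genes tested 0.468% rose. The median log2 fold change over the 24 was 0.25, and 21 of them were above 0. NF-kB is a family of dimers held in the cytoplasm by IkB proteins. NFKBIA, which encodes IkB alpha, was at 96.1 and 93.9 CPM in the DMSO libraries and at 129 and 123 CPM in the doxorubicin libraries (log2 fold change 0.41 ± 0.06, adjusted p = 0.00091). RELB, a partner in the non-canonical dimer, had counts of 155, 147, 292 and 213 in the 2 DMSO and the 2 doxorubicin libraries (log2 fold change 0.78 ± 0.12, adjusted p = 0.000975). NFKB2, which encodes the other partner, measured 18.5 and 14.5 CPM in DMSO and 32.4 and 27.4 CPM after doxorubicin (log2 fold change 0.86 ± 0.12, adjusted p = 0.000667). All 3 had groups apart in CPM and kept their call with any 1 library left out. BIRC3, an inhibitor of apoptosis protein and ubiquitin ligase of this pathway, had counts of 0, 2, 26 and 17 in the 4 libraries (adjusted p = 0.00206), so its fitted fold rests on 2 reads in DMSO and is not given. TNFAIP3, the deubiquitinase A20, measured 168 and 173 CPM without the drug and 198 and 199 CPM with it and did not pass (log2 fold change 0.22 ± 0.06, adjusted p = 0.0648). NFKBIZ, CD83 and CD40, further targets, had 0.30 ± 0.10, 0.56 ± 0.15 and 0.52 ± 0.20 and did not pass. REL, NFKB1 and NFKBIE, which encode a subunit, a precursor and an inhibitor, had 0.26 ± 0.09, 0.05 ± 0.06 and 0.27 ± 0.11 and did not pass.

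SULF2 and RGS16 stand in none of the lists. SULF2, an extracellular sulfatase of heparan sulfate, measured 4.17 and 5.04 CPM in DMSO and 10.2 and 10.6 CPM after doxorubicin (log2 fold change 1.18 ± 0.16, adjusted p = 0.000233). RGS16, which speeds the turning off of G proteins, measured 9.08 and 8.85 CPM in DMSO and 18.2 and 14.97 CPM after doxorubicin (log2 fold change 0.90 ± 0.13, adjusted p = 0.000453). Their groups were apart, and both genes had few reads in DMSO. CD70, TNFSF4 and ICOSLG, ligands of the lymphocyte receptors CD27, OX40 and ICOS, were chosen after their values were seen. CD70 was at 21.9 and 21.9 CPM in the DMSO libraries and at 33.5 and 31.7 CPM in the doxorubicin libraries (log2 fold change 0.58 ± 0.09, adjusted p = 0.00144). TNFSF4 measured 31.8 and 35.9 CPM in DMSO and 52.6 and 42.3 CPM after doxorubicin (log2 fold change 0.50 ± 0.10, adjusted p = 0.0231). ICOSLG measured 56.96 and 58.7 CPM in DMSO and 69.2 and 80.9 CPM after doxorubicin (log2 fold change 0.37 ± 0.07, adjusted p = 0.0166). Each had groups apart, with CD70 the closest between replicates. In the immediate early list, ATF3, a stress-induced transcription factor, was one of 2 called of 27 immediate early genes, BTG2 being the other, and measured 7.83 and 7.49 CPM without the drug and 12.7 and 12.7 CPM with it (log2 fold change 0.73 ± 0.13, adjusted p = 0.00539). JUN and EGR1, 2 classical members of that list, had 0.75 ± 0.19 and 0.63 ± 0.28 and did not pass, and the list's median was 0.10.

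The 48 rises in no p53 list are described here beside the 26 that are in one, with no test between them. A gene in no list can still be a p53 target, so this is no contrast of p53 targets with other genes. LINC01021, whose promoter held the p53 element with 0 mismatches, is among the 48. Their median log2 fold changes were 0.42 and 0.50. In 37 of the 48 the rise was larger in doxorubicin library 2, whereas in 21 of the 26 it was larger in library 1. The 48 had a median gene length of 7333 nt, with 18 of them in the longest decile of all genes tested, against 4054 nt and 2 for the 26. In that longest decile the median log2 ratio to DMSO over all genes was 0.02 in doxorubicin library 1 and 0.09 in library 2. Without doxorubicin library 2, 41 of the 48 and 26 of the 26 kept their call. Examples among the 48, chosen after their values were seen, are the acetyltransferase gene CREBBP (91.8 and 96.5 CPM in DMSO and 114 and 130.2 CPM after doxorubicin), the chromatin remodeler gene EP400 (61.5 and 68.1 CPM in DMSO and 79.1 and 95.3 CPM after doxorubicin) and the core spliceosome gene PRPF8 (445 and 453 CPM in DMSO and 503 and 565 CPM after doxorubicin). Their log2 fold changes were 0.37 ± 0.07, 0.42 ± 0.08 and 0.25 ± 0.06. In each of these 3 genes doxorubicin library 2 was the highest of the 4 libraries. The part of gene length and of library 2 in these rises was not tested.

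Replication-dependent histone genes fell together. Of 57 tested, 36 fell and none rose, while over all genes tested 0.354% fell. Of the 57, 56 were below 0, with a median log2 fold change of -0.28. In 53 of the 57 both doxorubicin libraries were below both DMSO libraries, as they were in 22.3% of all genes tested. Their summed share of reads was 2.32% and 2.24% in the DMSO libraries and 1.97% and 1.84% in the doxorubicin libraries, so the groups did not overlap and doxorubicin library 2 was lowest. The falls spread over all classes: 4 of 5 linker histones H1, 11 of 13 H2A, 9 of 16 H2B, 6 of 11 H3 and 6 of 12 H4. Fewer histone genes were called with either DMSO library left out. In such a fit the spread within groups came only from the group that kept both libraries. For the H2A gene HIST1H2AB the log2 fold change was -0.45 with all 4 libraries, -0.39 without DMSO library 1 and -0.52 without DMSO library 2. Without DMSO library 1 only 1 histone gene was called and without DMSO library 2, 12, whereas 50 and 45 were called without doxorubicin library 1 and 2. Histone genes are similar to one another, and short reads can be assigned to the wrong member.

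HIST1H2AB, an H2A gene, was at 262 and 239.6 CPM in the DMSO libraries and at 189 and 178 CPM in the doxorubicin libraries (log2 fold change -0.45 ± 0.06, adjusted p = 0.000229), and it alone of the histone genes kept its call with any 1 library left out. The H4 gene HIST1H4I measured 238 and 220.0 CPM in DMSO and 182 and 164 CPM after doxorubicin (log2 fold change -0.40 ± 0.06, adjusted p = 0.00144). HIST1H2BB, an H2B gene, was at 226 and 206 CPM in the DMSO libraries and at 171 and 159 CPM in the doxorubicin libraries (log2 fold change -0.39 ± 0.06, adjusted p = 0.00161). For these genes both doxorubicin libraries were low, and library 2 was the lower. The H3 gene HIST1H3C measured 568 and 523 CPM in DMSO and 443 and 414 CPM after doxorubicin (log2 fold change -0.35 ± 0.06, adjusted p = 0.00213). Its relative HIST1H3H measured 459.7 and 419.6 CPM in DMSO and 352 and 292 CPM after doxorubicin (log2 fold change -0.45 ± 0.08, adjusted p = 0.0424). Groups were apart in both, as they were for the H4 genes HIST1H4K (-0.45 ± 0.10) and HIST1H4B (-0.34 ± 0.06), which also fell. A member of another locus, the H2A gene HIST2H2AC, was chosen after its values were seen and measured 171 and 169 CPM without the drug and 139 and 134 CPM with it (log2 fold change -0.31 ± 0.06, adjusted p = 0.00635). Among genes that did not pass were HIST2H2BE, HIST2H2BF and HIST1H2BF, which encode H2B, at -0.08 ± 0.06, -0.10 ± 0.06 and -0.00 ± 0.06. Not all uncalled genes were near 0: the lowest log2 fold change of the 57 was -0.64, of an H3 gene that did not pass. The 1 gene above 0 was HIST1H1A at 0.10 ± 0.25.

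**Figure D4:**
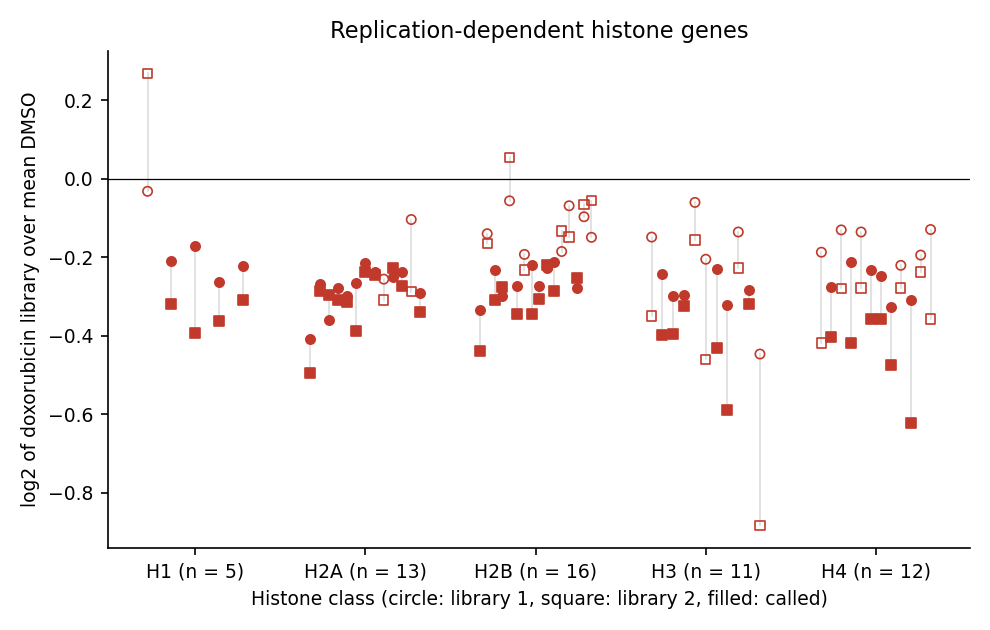
Each histone gene is drawn by class, with the log2 ratio to the mean of DMSO in doxorubicin library 1 (circle) and library 2 (square), filled where the gene was called. Nearly all symbols lie below 0 in every class, with class medians of the fitted change from -0.32 for H3 to -0.24 for H2B.

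The octamer ATTTGCAT, searched on both strands after the data had been seen, is known from H2B promoters, and it is shown because members with it were both called and not called. It stood in 5 of 8 matched H2B promoters, 5 of 6 of H2A, 1 of 2 of H3, none of 3 of H4 and none of 5 of H1. A promoter was matched for only 8 of 16 tested H2B genes, 6 of 13 of H2A, 2 of 11 of H3 and 3 of 12 of H4. The octamer stood in 1.80% of all 27305 promoters (RefSeq, GRCh38.p14). Of the H2B genes below, HIST1H2BJ (-0.29 ± 0.05) and HIST1H2BK (-0.22 ± 0.05) fell, while HIST1H2BC (-0.15 ± 0.05), HIST2H2BF and HIST2H2BE did not pass. All are on the minus strand, at chr6:27132815-27132862, chr6:27146877-27146924, chr6:26124022-26124069, chr1:149812392-149812439 and chr1:149886701-149886748 in that order. Capitals mark the octamer.
HIST1H2BJ: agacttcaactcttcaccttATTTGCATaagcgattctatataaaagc
HIST1H2BK: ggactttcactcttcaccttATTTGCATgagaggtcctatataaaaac
HIST1H2BC: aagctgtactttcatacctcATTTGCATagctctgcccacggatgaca
HIST2H2BF: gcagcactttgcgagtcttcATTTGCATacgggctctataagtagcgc
HIST2H2BE: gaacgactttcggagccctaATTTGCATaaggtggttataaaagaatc
In this small set the octamer was present in genes of either outcome, and nothing is drawn from it about the factors that bind it.

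Other genes of S phase and mitosis were mostly a little lower without passing the test. In the list of G1/S and DNA replication 1 of 44 genes fell and none rose, with a median log2 fold change of -0.13 and 37 below 0. CCNE2, the cyclin E2 that starts S phase, was the one that fell, at 135 and 136 CPM in DMSO and 113 and 112 CPM after doxorubicin (log2 fold change -0.27 ± 0.06, adjusted p = 0.0259). MCM2 and MCM5, subunits of the replicative helicase, had -0.22 ± 0.05 and -0.20 ± 0.05, and SLBP, which binds the stem-loop of histone mRNA, had -0.22 ± 0.06, and none of these passed. In the list of G2/M and mitosis it was 1 of 43 that fell and none that rose, with a median of -0.10 and 36 below 0. DLGAP5, a spindle protein, was at 127 and 124 CPM in the DMSO libraries and at 105 and 97.6 CPM in the doxorubicin libraries (log2 fold change -0.31 ± 0.06, adjusted p = 0.0127). The groups were apart for CCNE2 and for DLGAP5. H2AFX, whose protein is phosphorylated at DNA breaks, was the 1 called of 29 checkpoint genes and measured 274 and 251 CPM in DMSO and 219 and 224 CPM after doxorubicin (log2 fold change -0.24 ± 0.06, adjusted p = 0.0453). The list counts depended on the fit: over all 8 libraries 5 of the 44 G1/S genes and 2 of the 43 G2/M genes fell, beside 0.560% of all genes tested.

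The 20 falls outside the histone list had log2 fold changes from -0.48 to -0.23. IGJ, the joining chain of polymeric antibodies, was at 195 and 199 CPM in the DMSO libraries and at 149.7 and 149 CPM in the doxorubicin libraries (log2 fold change -0.40 ± 0.06, adjusted p = 0.000453) and kept its call with any 1 library left out. PLD4, a lysosomal nuclease of the phospholipase D family, was at 59.4 and 61.1 CPM in the DMSO libraries and at 49.2 and 43.6 CPM in the doxorubicin libraries (log2 fold change -0.37 ± 0.08, adjusted p = 0.0174). SHISA2, a regulator of receptor maturation, measured 17.5 and 17.1 CPM in DMSO and 13.3 and 11.1 CPM after doxorubicin (log2 fold change -0.48 ± 0.12, adjusted p = 0.0489). Both doxorubicin libraries were below both DMSO libraries in all 3 genes. SNORA48, a small nucleolar RNA, measured 22.6 and 20.1 CPM in DMSO and 16.3 and 14.6 CPM after doxorubicin (log2 fold change -0.46 ± 0.11, adjusted p = 0.0444), beside a median of -0.15 over 199 tested small nucleolar RNAs, with -0.02 in doxorubicin library 1 and -0.26 in library 2. Another 3 of the falls were chosen after their values were seen. They were MAN1A1, a Golgi mannosidase (869 and 849 CPM without the drug and 701 and 692 CPM with it, log2 fold change -0.30 ± 0.05), PDIA6, a disulfide isomerase (-0.29 ± 0.05), and EIF2AK3, the endoplasmic reticulum stress kinase PERK (-0.26 ± 0.06). For MAN1A1 the groups were apart. EIF2AK3 is not in the list of unfolded protein and integrated stress genes, of whose 28 members none was called and the median was -0.08. In the fit over all 8 libraries 2 of these 28 fell.

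Upstream kinases of the damage response did not pass the test. ATM and ATR, the kinases that sense breaks and stalled forks, had log2 fold changes of -0.05 ± 0.05 and -0.08 ± 0.06, and their effector kinases CHEK1 and CHEK2 had -0.10 ± 0.06 and -0.04 ± 0.07. None passed, nor did MDM4, the partner of MDM2 in restraining p53, at 0.01 ± 0.05. TOP2A, a target of the drug, measured 1729.9 and 1693 CPM without the drug and 1622 and 1549 CPM with it and did not pass (log2 fold change -0.11 ± 0.05, adjusted p = 0.367). TOP2B, the other target, measured 3228 and 3214 CPM without the drug and 3016 and 2911 CPM with it and did not pass (log2 fold change -0.12 ± 0.05, adjusted p = 0.311). For both genes the doxorubicin libraries were below the DMSO libraries. No call was made among 32 genes of homologous recombination and the Fanconi pathway, 17 of end joining, 20 of topoisomerases, adduct repair and drug transport, 31 MYC targets, 43 ribosomal proteins, 41 interferon genes, 24 NRF2 targets or 43 B-lineage factors, and their medians lay between -0.05 and 0.05. Nor was any called among 23 genes of cholesterol synthesis (median -0.09), 14 heat shock genes (-0.03), 22 output genes of BCR-ABL1 and STAT5 (0.05), 16 of MHC class II (0.04) and 17 of MHC class I (-0.06). MYC (-0.01 ± 0.05), PAX5 (0.24 ± 0.08), BCR (-0.07 ± 0.05) and ABL1 (0.05 ± 0.06), which stand for growth, B-cell identity and the fusion partners of this leukemia, did not pass. The reference genes GAPDH (0.06 ± 0.05) and ACTB (0.01 ± 0.05) did not pass either.

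The same dose and time of doxorubicin was also given after 36 h of 1035, in libraries that share none with this comparison. Against 1035 alone, 94 of 15688 genes rose (0.599%) and 57 fell (0.363%). Of the 130 genes called without 1035, 61 were called again in the same direction and none in the opposite one. Of the 26 rises in p53 lists 25 were tested and 16 were called again, as were 17 of the 48 other rises, 26 of the 36 histone genes and 2 of the 20 other falls. Their medians after 1035 were 0.57, 0.17, -0.26 and -0.14. The sources used here do not say if 1035 was still present while doxorubicin acted. If it was not, the drug and a shorter time in 1035 cannot be told apart in this setting.

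Among the rises called in both settings, ZMAT3 had 42.9 and 40.5 CPM in the 1035 libraries and 93.9 and 97.1 CPM after doxorubicin was added (log2 fold change 1.19 ± 0.08). CDKN1A had 230.3 and 239 CPM in the 1035 libraries and 359 and 356 CPM after doxorubicin was added (0.61 ± 0.06). LINC01021 measured 2.54 and 3.95 CPM in the 1035 libraries and 12.4 and 13.96 CPM after doxorubicin was added (2.04 ± 0.18). For HIST1H2AB the values were 98.8 and 103 CPM in the 1035 libraries and 75.2 and 72.5 CPM after doxorubicin was added (-0.45 ± 0.07). In each of the 4 genes the groups were apart in both settings, though their levels before the drug differed. TOB1, called without 1035, had 28.98 and 32.2 CPM in the 1035 libraries and 32.4 and 29.2 CPM after doxorubicin was added (0.01 ± 0.09, adjusted p = 0.995), with overlapping groups. A difference of response was tested as an interaction over all 8 libraries and 15882 genes, and TOB1 did not pass it (-0.48 ± 0.13, adjusted p = 0.613, edgeR), nor did LINC01021 (0.85 ± 0.23, adjusted p = 0.613).

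In that interaction 3 genes rose more after 1035 (0.0189% of those tested) and none fell more. The first 2 below belong to the NF-kB list. NFKBIA had 68.4 and 72.4 CPM in the 1035 libraries and 152 and 145 CPM after doxorubicin was added, a log2 fold change of 1.07 ± 0.07 against 0.41 ± 0.06 without 1035, and a difference of 0.68 ± 0.09 (adjusted p = 3.88e-05, edgeR). TNFAIP3 had 193 and 187 CPM in the 1035 libraries and 305 and 330.3 CPM after doxorubicin was added, a log2 fold change of 0.74 ± 0.06 against 0.22 ± 0.06, and a difference of 0.53 ± 0.08 (adjusted p = 0.00106, edgeR). For both genes the doxorubicin libraries were above their controls in either setting. The other, chosen after its values were seen, is listed as MIR146A but is 2304 nt long and so is not the short microRNA. It measured 12.1 and 15.96 CPM in DMSO and 15.2 and 13.1 CPM after doxorubicin, with overlapping groups, its log2 fold change after 1035 was 0.93, and its difference was 0.91 (adjusted p = 0.00643, edgeR). Among the 73 rises and 56 falls that entered this fit, NFKBIA was the gene with a called difference.

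**Figure D5:**
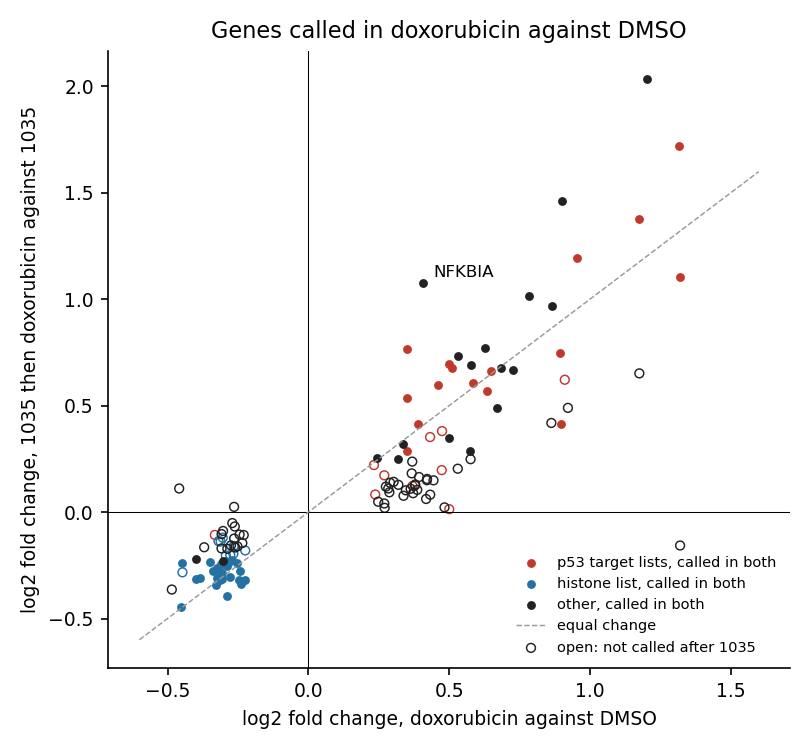
The genes called in doxorubicin against DMSO are placed by their log2 fold change there (horizontal) and in 1035 then doxorubicin against 1035 (vertical), filled where also called after 1035. BIRC3, off the scale, and LIF, not tested after 1035, are left out, and NFKBIA lies well above the dashed line of equal change.

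The 2 doxorubicin libraries disagreed for some transcripts that a mean would hide. MT-ND6, a subunit of respiratory complex I encoded on the light strand of mitochondrial DNA, had counts of 473, 447, 440 and 1067 in the 2 DMSO and the 2 doxorubicin libraries. The transfer RNA MT-TE, which lies on the same strand, had counts of 24, 29, 29 and 124. Doxorubicin library 2 was alone high in both, and neither gene passed (0.86 ± 0.89 and 1.64 ± 1.41). The other 3 of the 5 genes with the widest gap between the doxorubicin libraries, at a mean of at least 50 counts, showed the same order. The ribosomal RNA MT-RNR1 measured 10.01 and 6.72 CPM in DMSO and 9.48 and 24.7 CPM after doxorubicin. MTND6P4, a pseudogene of MT-ND6 that can share its reads, measured 2.61 and 2.00 CPM in DMSO and 2.03 and 8.41 CPM after doxorubicin. IFI44L, an interferon-induced gene, measured 4.10 and 2.58 CPM in DMSO and 2.85 and 7.45 CPM after doxorubicin. In all of them doxorubicin library 2 was the highest of the 4. The median log2 ratio to DMSO of the 15 mitochondrially encoded genes was 0.02 in doxorubicin library 1 and 0.85 in library 2. CTD-2328D6.1, chosen after its values were seen, had the lowest fitted change of all genes tested and 21.8 and 126 CPM in DMSO and 10.8 and 11.4 CPM after doxorubicin, so that 1 DMSO library stood apart, and it did not pass (adjusted p = 0.597, edgeR). Ranked by mean count, the lowest decile of genes had a median log2 fold change of 0.12 and the highest decile one of -0.05, and 44 of the 56 falls lay in that highest decile.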

How the data were processed

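Total RNA of SupB15 cells was sequenced after ribosomal RNA depletion with a stranded kit and single reads of 50 bases, per the labels' protocols. Alignment was to hg19 with Novoalign 2.08.01 and testing with DESeq2 1.4.5, per the submitters' processing notes. The sources used here do not name the read counter, its strand setting or its annotation, so values of antisense, overlapping and near-identical genes are uncertain. The authors deposited raw counts of reads per gene, per the file headers, and these alone were tested. The FPKM values in the file were scaled by the authors by gene length and library reads, per the file headers, and served only to derive gene lengths. The log2 fold changes and adjusted p-values deposited by the authors come from their own test and were only counted beside the present ones.

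Groups came from the sample labels, and the series design describes the 2 samples of each treatment as independent. Of 16773 genes, whose smallest total over 4 libraries was 10 counts, filterByExpr of edgeR 4.0.16 (R 4.3.3) kept 15799. TMM normalisation and the robust quasi-likelihood model of edgeR were fitted to the 4 libraries alone, with 2 residual degrees of freedom and a common biological coefficient of variation of 4.67%, and Benjamini-Hochberg adjustment ran over all genes tested at an FDR of 0.05. The interaction used all 8 libraries and 15882 genes. Tested on simulated data of 15549 genes, doxorubicin against DMSO recovered 50% of 1.25-fold, 84% of 1.5-fold and 100% of 2-fold changes. There were 7 false calls among 174. Changes were planted only in genes with a mean of at least 50 counts, and both groups were drawn with the same spread. The real spread was wider for doxorubicin (chi-square per degree of freedom 4.57) than for DMSO (1.77), so these rates may not hold for the real libraries.

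The members, the 32 gene lists and the tests were chosen with earlier results of these data known. Genes named by rule, 81 in all, were the 12 largest rises and 12 lowest falls called at a mean of at least 1 CPM, the 8 smallest p in each direction, called list members (all where 8 or fewer, otherwise 5 each way), fixed regulators and reference genes, and the 5 with the largest gap between the doxorubicin libraries. Gene lists are described by counts and medians, with no set test. ABCB1, fixed among the regulators, was not analysed here. Alternatives were DESeq2 1.42.0, voom with sample quality weights (limma 3.58.1), the likelihood ratio test, other size factors and count filters, all 8 libraries, a replicate block, each library left out, a fit without the robust prior, and a promoter search with fewer mismatches. The fit without the robust prior and the fits of all 8 libraries without 1 doxorubicin library were chosen after seeing the data.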

Additional observations from a re-analysis of the deposited data

Results flagged for a closer look

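The response of NFKBIA and TNFAIP3 to doxorubicin differed between cells given 1035 before and cells that were not, by the interaction test over all 8 libraries. NFKBIA, the inhibitor IkB alpha, changed by 0.41 ± 0.06 against DMSO and by 1.07 ± 0.07 after 1035 (log2), a difference of 0.68 ± 0.09 (adjusted p = 3.88e-05, edgeR), with both doxorubicin libraries above both controls in each setting. TNFAIP3, the deubiquitinase A20, had 0.22 ± 0.06, which did not pass the test, and 0.74 ± 0.06, a difference of 0.53 ± 0.08 (adjusted p = 0.00106, edgeR), again with no overlap. For NFKBIA the 1035 libraries (68.4 and 72.4 CPM) lay below the DMSO libraries (96.1 and 93.9 CPM) before doxorubicin. For TNFAIP3 the order was the opposite, with the 1035 libraries above the DMSO libraries. The part of these starting levels in the differences was not tested. Without 1035 the 10 h of doxorubicin stood against 46 h of DMSO, so drug and length of treatment cannot be told apart there. In the other response, 36 h of 1035 and then 10 h of doxorubicin stood against 46 h of 1035. The sources do not say if 1035 stayed during doxorubicin, so the drug and a shorter time in 1035 may be confounded there.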

How the results depend on the processing

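Against 74 rises and 56 falls, DESeq2 called 35 and 34, voom with sample quality weights 130 and 93, and the fit over all 8 libraries 127 and 89, and the likelihood ratio test called 165 rises. By the authors' deposited adjusted p 23 rose and 57 fell, of which 21 and 45 are among the calls here. That p was exactly 1 for 45 of the 74 rises and 4 of the 56 falls. Over all 16773 genes it had this value for 12579. Of 52 calls named by rule that DESeq2 gave an adjusted p, 19 did not pass: FAS, BTG2, BAX, AEN, TP53INP1, REV3L, DRAM1, RNF19B, ZNF79, ARHGEF3, ATF3, SIVA1, SHISA2, SNORA48, HIST1H3H, HIST1H4K, PLD4, H2AFX and CCNE2, with adjusted p from 0.0501 to 0.407 and no change of sign. In the fit over all 8 libraries 3 did not pass (edgeR): NEAT1 (adjusted p = 0.269), TP53INP1 (0.0604) and PLD4 (0.0561). Leaving out 1 library gave 31 to 1066 rises and 4 to 1025 falls, the most without doxorubicin replicate 1. The lone library of a group was then assumed to vary like the other group. The fit over all 8 libraries without doxorubicin replicate 1, added after seeing the data, gave 671 and 520. The replicate block gave 368 rises and 160 falls. The replicate numbers gave no sign of pairing: the correlation of deviations between DMSO and doxorubicin was -0.00 over 12067 genes. That value cannot show whether the replicates were prepared together. Of 25 genes called in all 4 fits with a library left out that rose and 2 that fell, 24 were called again after 1035, where 61 of all called genes were. Other size factors, count filters and the non-robust fit kept both counts within 1.5 times.

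No called gene that the text names by rule changed sign in any setting run. Uncalled genes near 0 did (log2 fold change). Over all 8 libraries MDM4 was -0.00450, DNTT -0.000355, PMAIP1 -0.00092 and ACTB -0.0026. Without doxorubicin replicate 2 that fit gave MDM4 -0.053, MYC 0.015, DNTT -0.071, ABL1 -7.64e-05, ACTB -0.016, MT-TE -0.085, MTND6P4 -0.19, MT-ND6 -0.28 and IFI44L -0.24, and without doxorubicin replicate 1 it gave PMAIP1 -0.097 and BCL2 0.0013. With 1 of the 4 libraries left out the ranges were -0.048 to 0.058 for MDM4, -0.052 to 0.020 for MYC, -0.071 to 0.097 for DNTT, -0.086 to 0.089 for PMAIP1, -0.062 to 0.012 for BCL2, -0.011 to 0.025 for ACTB, -0.080 to 2.55 for MT-TE, -0.19 to 1.85 for MTND6P4, -0.27 to 1.55 for MT-ND6 and -0.24 to 1.14 for IFI44L. The cause of these shifts was not tested. With 2 libraries a group, the smallest changes are at the limit of what was detected in simulated data, which gave both groups the same spread. A count that misses the threshold does not show equal levels.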
